A study of Homo sapiens with 6 samples.

Results

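Diacylglycerol is a membrane lipid messenger that is released when B-cell receptors activate phospholipase C. Protein kinase C is its best known target, but proteins outside that family also bind it through C1 domains, small zinc-binding folds. The RasGRP proteins are exchange factors that load Ras or Rap GTPases with GTP, and the protein kinase D enzymes are serine/threonine kinases that bind diacylglycerol themselves and are switched on by protein kinase C. Diacylglycerol kinases end the signal by phosphorylating diacylglycerol to phosphatidic acid. Bryostatin-1, a macrocyclic lactone from a marine bryozoan, occupies the same site of C1 domains as diacylglycerol.

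The genes described here are RASGRP1, RASGRP2 and RASGRP3, PRKD2 and PRKD3, and DGKA, DGKD, DGKE, DGKQ and DGKZ, 10 of the 58735 genes of the deposited table. They were chosen by name as diacylglycerol sensors outside protein kinase C and the kinases that remove the lipid. Raji cells, a human B-cell line from a Burkitt lymphoma, carried a GFP and firefly luciferase reporter (GFP-ffluc) in both groups. Overnight culture at 37 °C, in medium with 10% serum, contained either 1 nM bryostatin-1 or its solvent DMSO, and polyadenylated RNA was sequenced from 3 libraries of each group. The labels name no separate cultures, so each p-value reflects only how these libraries differ among themselves, which may be technical.

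Levels are given in FPKM, fragment numbers corrected for sequencing depth and for the gene length in the deposited table. That length was 10787 bases for DGKZ and 6097 for RASGRP1. The transcripts used below for C1 sequences have 3118 and 5023 bases. Comparisons of level between genes therefore depend on the length used, and which transcripts the cells make was not measured. Means are FPKM ± SD with n = 3 libraries. A change is the difference between the bryostatin and DMSO means of log2(FPKM + 1), a scale that understates changes of weak genes, and its adjusted p comes from limma with Benjamini-Hochberg adjustment over all 11071 genes averaging 1 FPKM or more. The libraries held 19405370 to 24468270 reads on genes. The 7 B-cell markers MS4A1, CD79A, CD79B, CD22, PAX5, BLK and EBF1 were all tested, and their summed level was 896 to 1384 FPKM in DMSO and 948 to 1290.04 FPKM with bryostatin. The 8 myeloid markers together stayed at or below 1.21 FPKM and the 8 epithelial or stromal markers at or below 1.46 FPKM in each library. Of the 8 T and NK cell markers NKG7 and CD247 averaged 1 FPKM or more, 2 were at 0 in each library, and CD3D, a defining T-cell gene, was at or below 0.0567 FPKM.

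The sequences below encode C1 domains and are shown because the RasGRP, protein kinase D and diacylglycerol kinase families share this fold. In RasGRP and protein kinase D proteins it is where diacylglycerol binds, whereas diacylglycerol kinases take the lipid as the substrate of their catalytic domain, and most of their C1 domains are not established binding sites. In each coding sequence of GENCODE release 29 an in-frame pattern was sought of 2 histidine and 6 cysteine codons, the zinc ligands of a C1 domain, with 10 to 17 codons between the second and the third cysteine. It was found 14 times, in 9 of the 10 genes. The pattern also set the spacings between its other histidine and cysteine codons, so domains spaced otherwise would be missed. DGKZ held no match, which does not show that it lacks the fold. The matches are therefore not a count of each protein's C1 domains. Each sequence is printed 5′ to 3′ on the coding strand without introns, with the histidine and cysteine codons of the pattern in capitals, and is followed by its genomic span in GRCh38.
RASGRP1: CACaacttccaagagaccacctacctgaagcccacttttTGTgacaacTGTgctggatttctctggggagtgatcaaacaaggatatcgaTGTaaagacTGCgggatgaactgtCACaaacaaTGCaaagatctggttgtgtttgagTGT
RASGRP2: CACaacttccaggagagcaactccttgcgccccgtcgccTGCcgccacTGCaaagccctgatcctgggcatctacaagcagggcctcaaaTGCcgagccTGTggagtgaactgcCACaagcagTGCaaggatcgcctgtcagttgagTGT
RASGRP3: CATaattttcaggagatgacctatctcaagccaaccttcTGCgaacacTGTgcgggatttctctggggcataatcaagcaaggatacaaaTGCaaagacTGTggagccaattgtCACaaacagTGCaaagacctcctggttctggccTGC
PRKD2, second pattern: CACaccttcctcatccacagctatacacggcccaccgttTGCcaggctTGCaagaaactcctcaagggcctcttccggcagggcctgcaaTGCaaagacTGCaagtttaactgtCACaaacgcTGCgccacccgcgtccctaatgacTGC
DGKD, first pattern: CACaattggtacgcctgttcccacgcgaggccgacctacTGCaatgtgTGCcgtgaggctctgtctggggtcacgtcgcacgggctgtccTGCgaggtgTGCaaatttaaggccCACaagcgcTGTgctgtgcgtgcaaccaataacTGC
DGKA: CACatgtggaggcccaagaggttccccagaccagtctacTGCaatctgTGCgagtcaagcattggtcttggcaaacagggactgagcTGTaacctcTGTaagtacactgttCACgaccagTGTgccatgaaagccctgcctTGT
The RASGRP1 stretch lies at chr15:38498894-38501202 on the minus strand, in exons 13 to 15, and that of RASGRP2 at chr11:64728990-64730112 on the minus strand, in exons 13 to 15. The RASGRP3 stretch lies at chr2:33549692-33558263 on the plus strand, in exons 15 to 17. That of PRKD2 is at chr19:46701060-46704265 on the minus strand, in exons 5 and 6. The DGKD stretch is at chr2:233434805-233435870 on the plus strand, in exons 5 and 6, and the DGKA stretch at chr12:55939436-55940131 on the plus strand, in exons 9 and 10.

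Between RASGRP1 and RASGRP3 110 of 150 bases of this stretch were identical (73.3%), against 59.3% between RASGRP1 and RASGRP2 and 61.3% between RASGRP2 and RASGRP3. The first pattern of PRKD2 shared 70.0% of its bases with that of PRKD3, and the second 66.7%. All 7 patterns of the RasGRP and protein kinase D genes had a proline codon at 11, counted from the first histidine, a glycine codon 8 before the third cysteine codon and a glutamine codon 4 before it, positions known for binding of phorbol esters by typical C1 domains. Among the 7 patterns of the diacylglycerol kinase genes that of DGKA had all 3 codons and the other 6 did not. The DGKA pattern is 1 codon shorter before the third cysteine, so that its glycine and glutamine codons stand at 22 and 26 from the first histidine and not at 23 and 27. As background, the C1 domain of RasGRP2 is known to bind diacylglycerol only weakly although it has residues of this kind at those positions.

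None of the 9 tested genes passed the test between bryostatin and DMSO, and DGKE was too low to be tested. In each of the 10 genes the libraries of both groups overlapped. Of the 9 genes tested, 5 had a higher and 4 a lower mean with bryostatin, and their changes ran from -0.13 to 0.13 on the log2 scale. At an adjusted p under 0.05, 0 of 9 were called, where the share among all tested genes was 0%. At an unadjusted p under 0.05 limma also gave 0 of 9, where the share of all tested genes was 17.6% (10.5% higher and 7.18% lower), and voom precision weights on the recovered reads gave 0 of 9 at both levels. No member had groups without overlap, against 23.6% of all tested genes (12.9% higher and 10.7% lower). The median change of the 9 genes was 0.03 and its median size without sign 0.08, against 0.02 and 0.14 over all tested genes. The 95% interval of each of the 9 genes stayed within 1.5-fold either way on this scale, as did that of 73.4% of all tested genes. As bulk RNA, a lower level could be fewer cells with the transcript or less of it per cell, which cannot be told apart.

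**Figure D1:**
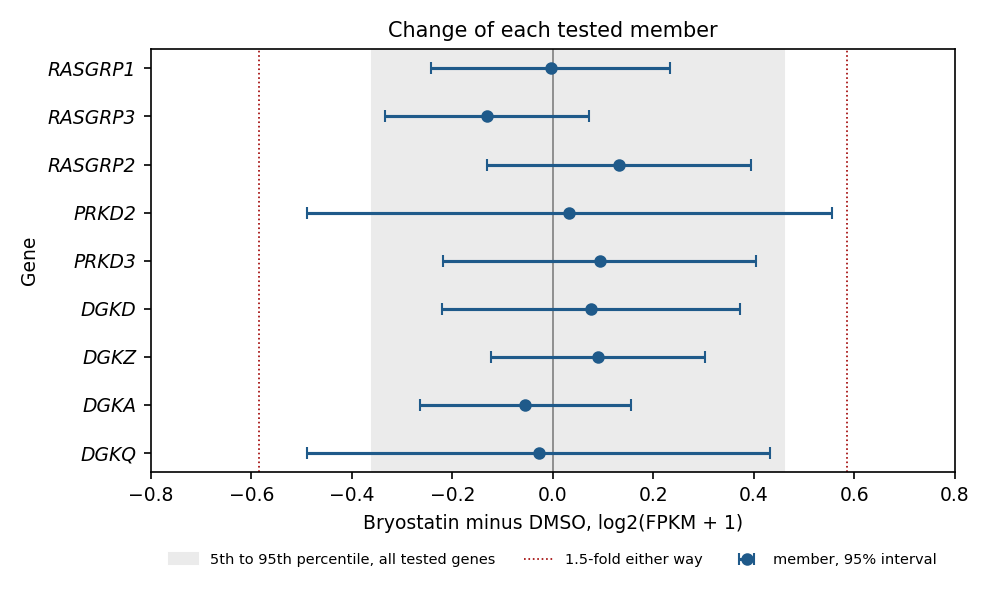
Change of the 9 tested members, bryostatin minus DMSO in log2(FPKM + 1) on the horizontal axis, with 95% intervals as bars, the 5th to 95th percentile of all tested genes in grey and 1.5-fold either way as dotted lines. Each point lies between -0.13 and 0.13, each interval includes 0, and PRKD2 and DGKQ have the widest intervals.

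By summed FPKM the RasGRP genes stood first among the 3 families, at 48.9 to 54.5 FPKM. This order, too, depends on the gene lengths used for FPKM. RASGRP1 (ENSG00000172575, chromosome 15, 38488103 to 38565575) encodes the exchange factor best known for Ras activation after antigen receptor signals in T cells, and B cells express it too. It was at 18.6, 18.6 and 22.3 FPKM in DMSO replicates 1 to 3 and at 19.3, 18.8 and 21.0 FPKM with bryostatin. DMSO replicate 3 was the highest library, and the bryostatin libraries lay inside the DMSO range. Its means were 19.8 ± 2.18 and 19.7 ± 1.16 FPKM, a change of -0.0042 (SE 0.10, 95% interval -0.24 to 0.23, adjusted p = 0.987 in limma). Of all tested genes only 13.3% varied less between their lowest and highest library than RASGRP1 did (1.204-fold).

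RASGRP3 (ENSG00000152689, chromosome 2, 33436324 to 33564750) encodes the exchange factor that is known to act downstream of phospholipase C in the B-cell receptor pathway. It was at 18.9, 18.4 and 21.1 FPKM in DMSO and at 17.01, 17.4 and 18.7 FPKM with bryostatin. The 2 lowest libraries had bryostatin and the 2 highest DMSO, with bryostatin replicate 3 above DMSO replicate 2. The means of 19.5 ± 1.40 and 17.7 ± 0.872 FPKM gave a change of -0.13 (SE 0.09, interval -0.33 to 0.07), and its adjusted p of 0.440 in limma was the smallest of the 9 genes. Under quantile scaling the change was -0.20, with an unadjusted p of 0.0454 and an adjusted p of 0.284. Over all alternatives it ran from -0.20 to -0.08, always on the lower side.

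RASGRP2 (ENSG00000068831, chromosome 11, 64726911 to 64745456), also called CalDAG-GEFI, mainly activates Rap1 and is driven by calcium through its EF hands. It was at 11.5, 14.4 and 11.04 FPKM in DMSO and at 13.96, 12.7 and 13.9 FPKM with bryostatin. DMSO replicate 2 was the highest library and DMSO replicates 1 and 3 were the lowest. The change was 0.13 (SE 0.11, interval -0.13 to 0.39, adjusted p = 0.546 in limma), from 12.3 ± 1.80 to 13.5 ± 0.738 FPKM. Without DMSO replicate 2 it was 0.24, with an unadjusted p of 0.0401 and an adjusted p of 0.318. RASGRP4, the paralog best known from mast cells and other myeloid cells, held 10 reads over all 6 libraries and at most 7 in any of them.

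Within the RasGRP family RASGRP1 and RASGRP3 made up similar parts of the summed FPKM and RASGRP2 the rest. These parts depend on the deposited lengths, 6097 bases for RASGRP1, 11118 for RASGRP3 and 6084 for RASGRP2. Without length correction their mean reads per library were 2549, 4385 and 1661. RASGRP1 held 38.3 ± 2.47% of the family's summed FPKM in DMSO and 38.7 ± 0.445% with bryostatin. RASGRP2 held 23.9 ± 3.85% and 26.5 ± 1.06%. RASGRP3 held 37.7 ± 1.59% and 34.7 ± 0.871%, and its share was lower in every bryostatin library (33.8% to 35.6%) than in any DMSO library (35.9% to 38.7%). With each library left out in turn the difference in the RASGRP3 share was between -3.88 and -2.48 percentage points. Shares were not tested, and its groups did overlap in level. Of the 10 members' shares 2 had groups without overlap, those of RASGRP3 and DGKA, beside 23.6% of all tested genes by level.

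**Figure D2:**
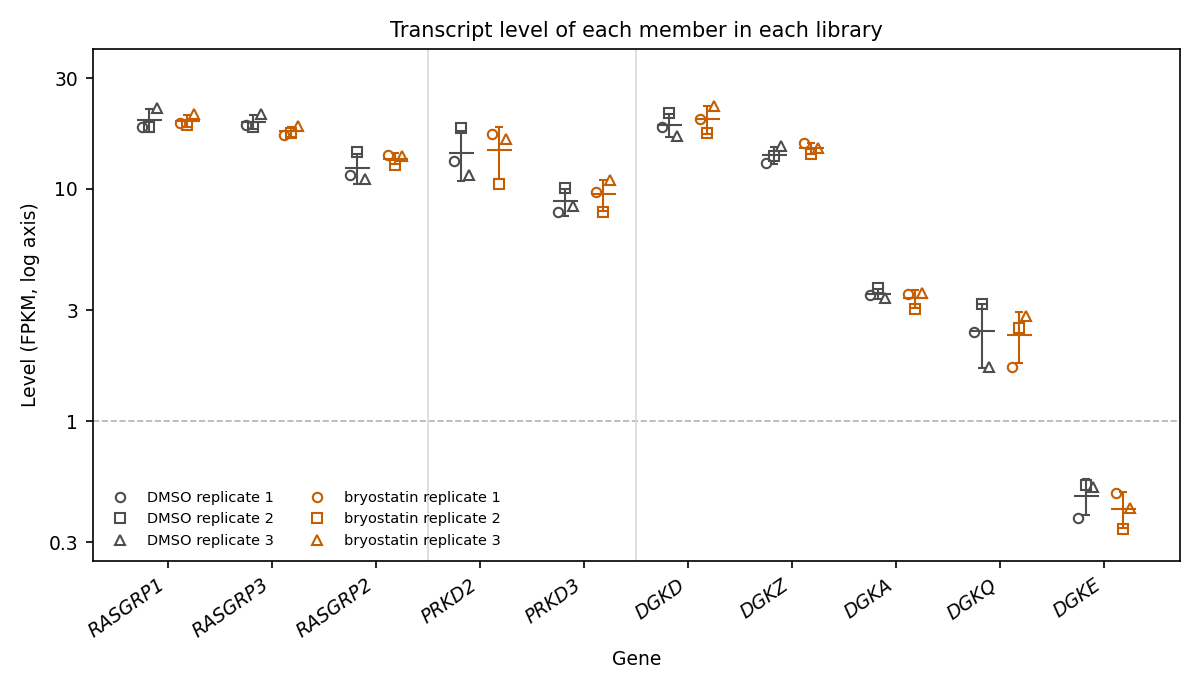
Level of each member in FPKM on a log axis, by gene, with DMSO in grey and bryostatin in orange; open symbols are single libraries by replicate, horizontal marks are means and bars are SD (n = 3). DMSO and bryostatin symbols overlap in all 10 genes, and DGKE is the only one below the dashed line at 1 FPKM.

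Of the protein kinase D genes PRKD2 and PRKD3 were expressed, while PRKD1 held 3 reads, all in DMSO replicate 1. PRKD2 (ENSG00000105287, chromosome 19, 46674275 to 46717127) encodes the isoform known as prominent in lymphocytes. It was at 13.2, 18.3 and 11.5 FPKM in DMSO and at 17.2, 10.5 and 16.5 FPKM with bryostatin. DMSO replicate 2 and bryostatin replicates 1 and 3 stood high, and the other 3 libraries low, with each treatment on both sides. The highest library was 1.74-fold above the lowest, a ratio larger than that of 75.7% of all tested genes. With 1145 to 2182 reads per library the counting error was at most 2.96%, while the coefficient of variation was 24.6% in DMSO and much the same with bryostatin. The means of 14.3 ± 3.52 and 14.7 ± 3.69 FPKM differed by 0.03 on the log2 scale (SE 0.22, interval -0.49 to 0.56, adjusted p = 0.953 in limma), and the sign turned with TPM scaling (-0.014) and with quantile scaling (-0.036). Leaving out bryostatin replicate 2 gave 0.24 and leaving out DMSO replicate 3 gave -0.10.

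PRKD3 (ENSG00000115825, chromosome 2, 37250502 to 37324808) encodes a closely related kinase. It was at 7.94, 10.1 and 8.44 FPKM in DMSO and at 9.66, 7.997 and 10.9 FPKM with bryostatin. The same 3 libraries were high as for PRKD2, over a narrower range. The change was 0.09 (SE 0.13, interval -0.22 to 0.40, adjusted p = 0.729 in limma), from 8.84 ± 1.16 to 9.52 ± 1.45 FPKM, and it was -0.00013 without bryostatin replicate 3. PRKD2 made up 61.5 ± 3.37% of the family's FPKM in DMSO and 60.4 ± 3.66% with bryostatin. By mean reads per library, without length correction, PRKD3 (1989) was above PRKD2 (1678). The span of the gene NDUFAF7, introns included, overlaps that of PRKD3 on the opposite strand over 2902 bases. NDUFAF7 was at 6.65 FPKM, its reads amounting to 25.97% of those of PRKD3. How many of these bases are exon in both genes was not measured. Since the strand setting of the counting is not given, reads in any shared exon stretch cannot be assigned with certainty.

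Diacylglycerol kinases summed to 37.8 to 45.3 FPKM, and DGKD and DGKZ accounted for most of that. DGKD (ENSG00000077044, chromosome 2, 233354507 to 233472104) encodes the delta isoform, which has a pleckstrin homology domain and a SAM domain. It was at 18.6, 21.2 and 16.9 FPKM in DMSO and at 19.9, 17.3 and 22.7 FPKM with bryostatin. Its 3 highest libraries were again DMSO replicate 2 and bryostatin replicates 1 and 3. The change was 0.08 (SE 0.13, interval -0.22 to 0.37, adjusted p = 0.774 in limma), from 18.9 ± 2.15 to 19.996 ± 2.67 FPKM, and it was -0.015 without bryostatin replicate 3.

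DGKZ (ENSG00000149091, chromosome 11, 46332905 to 46380554) encodes the zeta isoform, known with DGKA as a brake on Ras signalling behind antigen receptors. It was at 12.9, 13.8 and 15.3 FPKM in DMSO and at 15.7, 14.1 and 15.0 FPKM with bryostatin. DMSO replicates 1 and 2 were the lowest libraries, and DMSO replicate 3 lay among the bryostatin libraries. The change was 0.09 (SE 0.09, interval -0.12 to 0.30, adjusted p = 0.616 in limma), from 14.0 ± 1.18 to 14.9 ± 0.816 FPKM, and without DMSO replicate 3 it was 0.15 (adjusted p = 0.306).

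DGKA (ENSG00000065357, chromosome 12, 55927319 to 55954027), the alpha isoform, is activated by calcium and is abundant in resting T cells. In these cells it was at 3.50, 3.74 and 3.40 FPKM in DMSO and at 3.54, 3.03 and 3.57 FPKM with bryostatin. Apart from bryostatin replicate 2, the lowest, the libraries lay close together. The change was -0.05 (SE 0.09, interval -0.26 to 0.15, adjusted p = 0.770 in limma), from 3.54 ± 0.177 to 3.38 ± 0.304 FPKM, and it was 0.0044 without bryostatin replicate 2. The span of PYM1, introns included, overlaps that of DGKA on the opposite strand over 5300 bases. PYM1 was at 11.8 FPKM, with reads amounting to 80.7% of those of DGKA.

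DGKQ (ENSG00000145214, chromosome 4, 958887 to 986895), the theta isoform, has 3 C1 domains, and the codon pattern was found 3 times in it. It was at 2.42, 3.20 and 1.71 FPKM in DMSO and at 1.71, 2.52 and 2.84 FPKM with bryostatin. The lowest DMSO and the lowest bryostatin library lay at the same level. The groups spread by 30.5% and 24.8% (coefficient of variation), the first being the widest among the tested members, on 161 to 348 reads per library. The change was -0.03 (SE 0.20, interval -0.49 to 0.43, adjusted p = 0.954 in limma), from 2.44 ± 0.744 to 2.36 ± 0.586 FPKM. It was 0.13 without DMSO replicate 2 and 0.12 without bryostatin replicate 1.

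DGKE (ENSG00000153933, chromosome 17, 56834099 to 56869567), the epsilon isoform, is known for its preference for diacylglycerol with an arachidonoyl chain. It was at 0.382, 0.530 and 0.521 FPKM in DMSO and at 0.492, 0.343 and 0.424 FPKM with bryostatin, below the level needed for testing. These values rest on 75 to 127 reads per library, a counting error of up to 11.5%, and the groups overlapped. The span of TRIM25, introns included, overlaps that of DGKE on the opposite strand over 33181 bases, and TRIM25 held 2005 reads per library on average. Shared exon bases were not measured, so the assignment of reads to DGKE is uncertain. With the filter lowered to 0.1 FPKM its change was -0.06, with an adjusted p of 0.813 in limma.

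DGKD held 47.0 ± 2.65% of the family's FPKM in DMSO and 47.8 ± 2.13% with bryostatin. DGKZ held 35.03 ± 4.09% and 35.9 ± 2.38%. The share of DGKA, 8.84 ± 0.236% and 8.09 ± 0.267%, was lower in every bryostatin library (7.88% to 8.39%) than in any DMSO library (8.61% to 9.09%), without a test and with overlapping levels, the other of the 2 such shares among 10. Among the paralogs outside the list DGKH was at 0.453 to 0.927 FPKM and made up 1.199% to 2.14% of the family. DGKG held 7 reads over the 6 libraries, and DGKB, DGKI and DGKK held 0 reads in every library. A count of 0 allows up to 3 reads, 0.123 to 0.155 CPM in these libraries, counting error only.

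**Figure D3:**
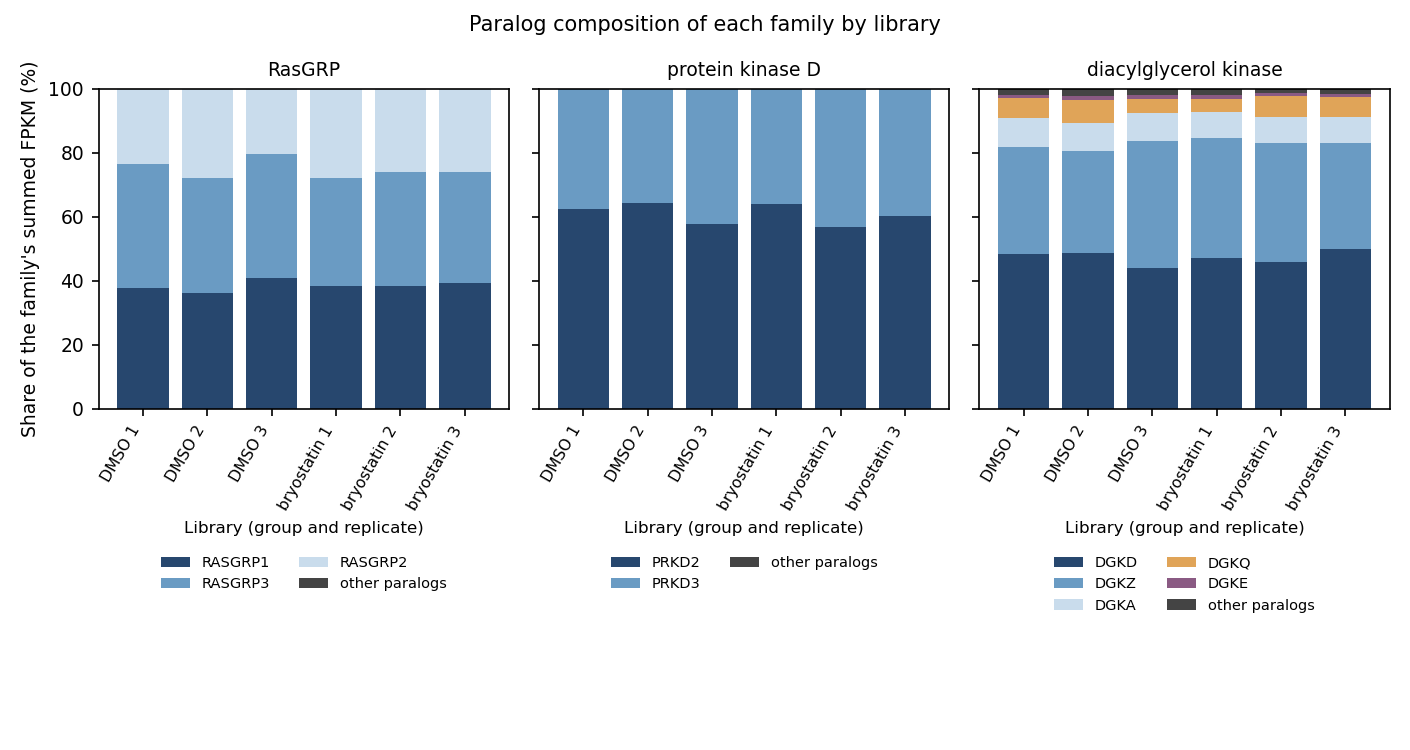
Share of each gene in its family's summed FPKM, in percent, as stacked bars for the 6 libraries, in 3 panels for RasGRP, protein kinase D and diacylglycerol kinase genes. Segments are stacked in the same set order in every bar, and paralogs outside the list make up at most 2.15% of any bar.

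Ranked by mean FPKM over the 6 libraries, RASGRP1 (19.8 FPKM), DGKD (19.4 FPKM) and RASGRP3 (18.6 FPKM) stood first. PRKD2 and DGKZ followed at 14.5 FPKM each, and RASGRP2 at 12.9 FPKM. The ranges of neighbours overlapped throughout this upper part, but the lowest library of RASGRP1, DGKD and RASGRP3 lay above the highest of DGKZ and RASGRP2. PRKD2, with its wide range, overlapped with each of these genes except RASGRP1. PRKD3 at 9.18 FPKM lay below RASGRP2 in range as well as in mean. DGKA at 3.46 FPKM lay below PRKD3 without overlap, DGKA and DGKQ (2.40 FPKM) overlapped although DGKA was above DGKQ in 6 of 6 libraries, and DGKE (0.449 FPKM) was lowest without overlap. RASGRP1 was above 79.3% of the tested genes and DGKQ above 20.4% of them. By mean reads per library, without length correction, RASGRP3 (4385), DGKD (4032) and DGKZ (3293) stood above RASGRP1 (2549). The order and the gaps in FPKM therefore depend on the deposited gene lengths.

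The libraries differed in a way that crossed the treatments. In 5 of the 10 genes, RASGRP2, PRKD2, PRKD3, DGKA and DGKD, the 3 highest libraries were DMSO replicate 2 and bryostatin replicates 1 and 3. This order held for 910 of all tested genes (8.22%), and for another 963 (8.70%) those libraries were the 3 lowest. RASGRP1 and RASGRP3 did not follow it and were highest in DMSO replicate 3. Read depth did not separate these libraries, which held 21379437, 19405370 and 21406275 reads against 24468270, 19883563 and 19671580 in the rest. The summed B-cell markers were also highest in them, at 1384, 1290.04 and 1228 FPKM against 1096, 896 and 948 FPKM in DMSO replicates 1 and 3 and bryostatin replicate 2. Of the 7 markers 3 had this order, MS4A1, CD79A and CD22, while CD79B, PAX5, BLK and EBF1 did not. BLK was lowest in bryostatin replicates 1 and 3, at 12.1 and 15.5 FPKM, and highest in DMSO replicate 1, at 23.3 FPKM. The 8 T and NK cell markers, of which NKG7 had this order and CD247 did not, summed to 5.78, 4.399 and 4.46 FPKM in them against 3.92, 3.08 and 3.51 FPKM in the rest. The share of reads on mitochondrial genes was 3.05%, 2.78% and 2.86% in them against 2.68%, 3.22% and 3.35% in the rest. The part of these in the members' levels was not tested.

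**Figure D4:**
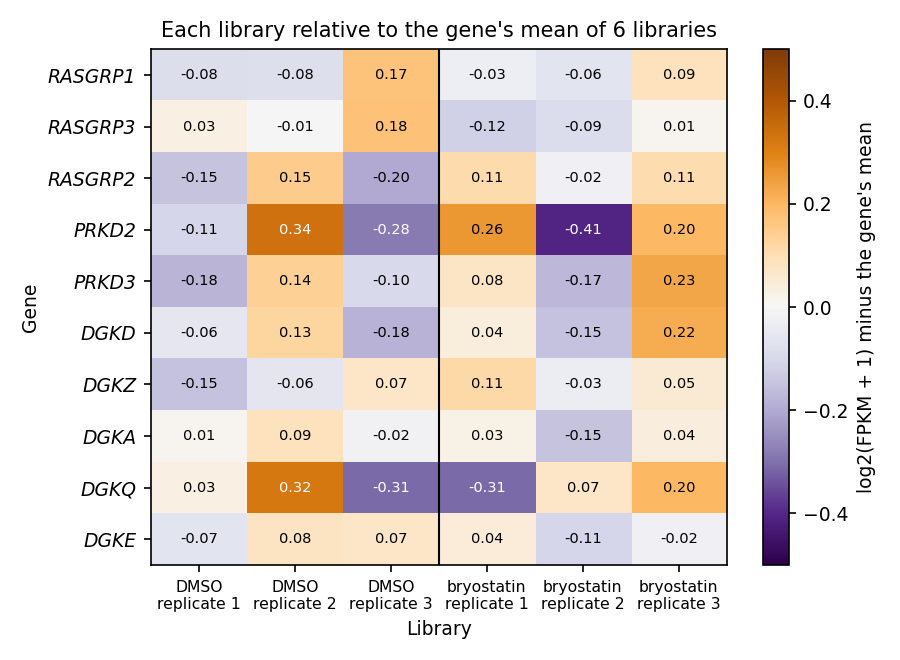
Each member's log2(FPKM + 1) in each library minus its mean over the 6 libraries, as colour and printed value, with a line between DMSO and bryostatin. PRKD2 is at 0.34, 0.26 and 0.20 in DMSO replicate 2 and bryostatin replicates 1 and 3 and at -0.11, -0.28 and -0.41 in the other libraries, so that each treatment holds high and low libraries.

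The leading member of each family by FPKM was compared with 9264 other protein-coding genes. The genes most like it were sought by the Pearson correlation of log2(FPKM + 1) over the 6 libraries, given as a description only. For PRKD2 these were CD99, a surface glycoprotein (r = 0.999), and PTPN6 (r = 0.998), and 203 genes had an r above 0.9. PTPN6, which encodes the phosphatase SHP-1, was at 54.0, 124.8 and 38.8 FPKM in DMSO and at 111.3, 32.6 and 103.4 FPKM with bryostatin, a wider swing over the same libraries than that of PRKD2. For RASGRP1 they were SEC23IP (r = 0.988) and XPO4 (r = 0.982), with 70 genes above 0.9. For DGKD they were RNF167 (r = 0.997) and HLA-DQA2 (r = 0.997), with 129 genes above 0.9. Reads of HLA-DQA2 may fall on its near-identical relatives.

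Genes around the members in the pathway were counted from 12 lists of 120 genes, of which 69 were tested. None passed an adjusted p of 0.05 in limma (smallest 0.216), and 13 had an unadjusted p under 0.05, 2 higher and 11 lower, 18.8% against 17.6% of all tested genes. Voom called none of them either, with 17 at an unadjusted p under 0.05. The median change over the 69 genes was -0.07, against 0.02 for all tested genes.

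Upstream, all 4 tested phospholipase C genes and all 6 tested protein kinase C genes had lower means with bryostatin, with medians of -0.23 in each list and 2 members of each lower at an unadjusted p under 0.05. Of all tested genes 46.1% had a lower mean, 7.18% were lower at that p and 10.7% were lower without overlap. The protein kinase C gene with the largest change, named after its values were seen, was PRKCB at 24.4 ± 3.61 FPKM in DMSO and 17.01 ± 2.15 FPKM with bryostatin (change -0.49, adjusted p = 0.217 in limma). PLCG2, the phospholipase C of the B-cell receptor, was at 52.1 ± 3.42 FPKM in DMSO and 43.2 ± 3.29 FPKM with bryostatin (change -0.27, adjusted p = 0.241), with no overlap. Its relative PLCG1 was at 10.5 ± 0.411 and 9.43 ± 0.386 FPKM. PRKCD was at 53.9 ± 3.33 and 52.0 ± 0.857 FPKM and PRKCI, an atypical isoform that does not bind diacylglycerol, at 27.1 ± 2.43 and 21.7 ± 2.26 FPKM (adjusted p = 0.240). None of these differences passed, and whether they differ from those of the RasGRP, protein kinase D or diacylglycerol kinase genes was not tested. Without DMSO replicate 3 the phospholipase PLCB2 was the 1 gene of the 12 lists that passed (change -0.65, adjusted p = 0.0463), where 267 genes in all (2.41% of those tested) were called.

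Other enzymes that make or use diacylglycerol or phosphatidic acid had a median of 0.03 over 4 phosphatase and sphingomyelin synthase genes. The most abundant were LPIN1 (change 0.31, SE 0.25) and PLPP1 (-0.37, SE 0.12). The groups overlapped in LPIN1 (adjusted p = 0.539 in limma) but not in PLPP1 (adjusted p = 0.228 in limma). Over 7 further enzymes the median was 0.06, led by SELENOI (0.02) and CDIPT (0.07). In these lists only PLPP1 and CEPT1 had an unadjusted p under 0.05 in limma, both lower. Among 13 other tested genes with C1 domains the median was -0.08, and the most abundant, ARHGAP45 and ARHGEF2, had changes of 0.20 and 0.09. Of these 13 genes 1 was higher and 3 were lower at an unadjusted p under 0.05 in limma. Among all tested genes 10.5% were higher and 7.18% lower at that p. The smallest adjusted p of this list was 0.216.

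Downstream of RasGRP, the 10 tested Ras and Rap genes had a median change of 0.02, with an unadjusted p under 0.05 for HRAS and RRAS2, in opposite directions. HRAS, named after its values were seen, was at 16.1 ± 1.78 FPKM in DMSO and 22.1 ± 3.47 FPKM with bryostatin (change 0.43, adjusted p = 0.227 in limma), without overlap. The most abundant were RRAS2 at 34.6 ± 1.77 FPKM in DMSO and 29.9 ± 0.905 FPKM with bryostatin (adjusted p = 0.263 in limma) and NRAS at 23.2 ± 2.97 and 22.5 ± 1.44 FPKM. The 7 RAF, MEK and ERK kinase genes had a median of -0.07, with MAP2K1 at 0.08 and MAP2K2 at -0.07. Only MAPK3 among them had an unadjusted p under 0.05 in limma, and it was lower. The 9 other Ras regulators had a median of -0.17, with GRB2 at 0.06 and SOS1 at -0.10 as the most abundant. Known substrates and partners of protein kinase D, 9 tested, had a median of -0.10. Their leading genes were HDAC7, a class IIa histone deacetylase that protein kinase D is known to phosphorylate, with a change of 0.08, and OSBP with -0.04. No gene of these lists passed in limma.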

How the data were processed

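The authors deposited 1 table of FPKM values, with each gene's length, that covers 58735 genes. Named without roles in the submitters' processing notes are hg38, DESeq2 1.20.0, featureCounts 1.5.0-p3, HISAT2 2.0.5 and CASAVA. Annotation release, strand setting and filters: not given in the sources used here. FPKM times gene length gave whole multiples of 1 step per library for 100% of values (within 0.01 reads), which gave the reads per gene.

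For genes averaging 1 FPKM or more, limma 3.58.1 (R 4.3.3) was applied to log2(FPKM + 1) (moderated test with intensity trend, two-sided), with p-values adjusted over all tested genes at a threshold of 0.05. An exact permutation test of 3 against 3 cannot go below 0.1. The fit was tested on simulated reads, drawn independently for each library with 1 fixed spread. They held no pattern that crosses the treatments, so that test does not cover the pattern of these libraries. Named were all members and paralogs, the 2 most abundant genes of each pathway list, genes that overlap a member at 1 FPKM or more, and the 2 nearest patterns of each family's leading member. C1 patterns were read from GENCODE release 29 transcripts (APPRIS principal transcript with the longest coding sequence). Alternatives covered pseudocount, filter, scaling, moderation, voom, a replicate block and each library left out. Members and lists were chosen with earlier results of these data known. MIR320E, within PRKD2, reached 1.64 FPKM on 1.83 reads on average and is not described further. A further B-cell marker is not reported here.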

Additional observations from a re-analysis of the deposited data

How the results depend on the processing

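The count of 0 called members held in 18 of 18 alternatives. At an unadjusted p under 0.05 it became 1 with quantile scaling (RASGRP3) and ranged from 0 to 1 with a library left out (RASGRP2, without DMSO replicate 2). Signs near 0 turned: PRKD2 had -0.014 with TPM and -0.036 with quantile scaling. With each library left out in turn PRKD2 ranged from -0.10 to 0.24, RASGRP1 from -0.049 to 0.081, PRKD3 from -0.00013 to 0.20, DGKA from -0.087 to 0.0044, DGKD from -0.015 to 0.17 and DGKQ from -0.19 to 0.13. RASGRP2, RASGRP3 and DGKZ kept their sign in all alternatives run. Among all tested genes the called count of 0 became 1 with a pseudocount of 0.1, 1 with TPM and 66 without a filter, where limma warned that most variances were 0, and it ranged from 0 to 267 with a library left out, the highest without DMSO replicate 3. The 1954 genes at an unadjusted p under 0.05 became 3155 without a filter and ranged from 913 (without bryostatin replicate 1) to 2861, with 969 without DMSO replicate 1. They split into 1159 higher and 795 lower as deposited, 848 and 1099 with TPM, and 897 and 1010 with quantile scaling. Called genes of the pathway lists ranged from 0 to 1, and their 13 at an unadjusted p under 0.05 from 6 (without bryostatin replicate 1) to 18, with 8 without DMSO replicate 1. The cause of these shifts was not tested.

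Replicate numbers did not pair the libraries: deviations of same-numbered libraries correlated at -0.29, -0.32 and -0.11, and no library correlated best with its own number. With the number as a replicate block 1191 genes had an unadjusted p under 0.05, 8 of them in the pathway lists, and 0 members were called. Arms of 2 libraries rest on the spread pooled with the other group.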
